A study of Mus musculus with 4 samples.

Results

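The 35 genes described here encode enzymes of cholesterol and fatty acid synthesis, their transcriptional regulators, and carriers that move cholesterol out of and into cells. They were chosen by symbol from the 32285 genes measured, and all 35 were found. By role they are 7 enzymes of the mevalonate stage, 11 enzymes from squalene to cholesterol, 3 regulators, 10 enzymes that make, desaturate or elongate fatty acids, and 4 genes of cholesterol export and uptake. Their levels were read in single nuclei of the mouse spinal dorsal horn, the first relay of touch and pain from the body.

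Nuclei were captured with a 10x 3′ kit from 4 libraries, 1 per group. The groups were wild-type mice (Gpr37l1+/+, WT) and mice without Gpr37l1 (Gpr37l1-/-, KO), each naive or 1 day after spared nerve injury (SNI), an operation that cuts some branches of the sciatic nerve and leaves another intact. Gpr37l1 is a receptor found mainly on astrocytes. The labels give no strain, age, sex or number of animals, and do not say in which cells or how the gene was disrupted. Groups follow the sample titles; the treatment tags contradict them for the KO naive library, tagged as injured, and the WT SNI library, tagged as naive. If the tags held, genotype and injury could not be separated in these 4 libraries. The KO SNI library is also the only one whose molecule label is total RNA rather than polyA RNA.

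With 1 library a group no test was possible. Each level is given as UMIs (counted RNA molecules) of the gene per 1000000 UMIs of the class without mitochondrial genes, abbreviated CPM. Each ratio is on the log2 scale with a 95% interval that covers counting error only, so it says nothing of how mice or libraries vary. "Higher" and "lower" below describe these libraries.

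The libraries held 19942 to 37552 barcodes and 35197290 to 69572640 UMIs, with medians of 1284 to 1509 UMIs per barcode. After filtering, 104228 nuclei were kept, and 64583 of them fell in clusters named from marker genes. Gpr37l1 itself stood at 146 CPM and 145 CPM in the astrocyte-like nuclei of the WT naive and WT SNI libraries, and at 0 CPM and 1.87 CPM in those of the KO naive and KO SNI libraries. RNA of other cells was present in each class. The neuronal gene Slc17a6 was found at 61.9 to 129 CPM in the glial classes, against 140 to 150 CPM in excitatory neuron-like nuclei. Slc32a1, a marker of inhibitory neurons, did not part that class from oligodendrocyte-like nuclei. It was at 39.9 to 66.4 CPM in oligodendrocyte-like and 52.0 to 72.7 CPM in inhibitory neuron-like nuclei. Marker lists parted the classes more clearly than these single genes. The 7 inhibitory markers summed to 821 to 958 CPM in inhibitory neuron-like and 283 to 393 CPM in oligodendrocyte-like nuclei. The 7 excitatory markers summed to 4318 to 5467 CPM in excitatory neuron-like nuclei and 581 to 2235 CPM in the glial classes. Libraries shared 162 to 293 barcodes in pairs.

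Cholesterol does not cross the blood-brain barrier to any useful extent, so the spinal cord makes its own. Acetyl units are built into mevalonate and then squalene, squalene is closed into a ring, and a chain of endoplasmic reticulum enzymes trims the ring to cholesterol. The transcription factors made from Srebf2 and Srebf1 switch these genes and those of fatty acid synthesis on when sterol runs low. Oligodendrocytes spend the lipid on myelin, while astrocytes load cholesterol on to apolipoprotein E through ABC transporters and supply neurons, which take the particles up by receptors such as Lrp1.

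The promoters of the sterol enzymes shared a feature that the choice of genes did not use. RefSeq promoter windows on the build GRCm38.p6 were matched for 28 of the 35 genes, and the 250 bases before the annotated start were searched on both strands for 3 motifs. CCAAT, the box read by NF-Y, a partner of the sterol-responsive factors, was present in 14 of 15 sterol enzymes with a window. It stood before 2 of 7 fatty acid genes, Fasn and Elovl5, and before 37.5% of 27025 genes of the same table. The sole sterol enzyme without it was Acat2. A gene with several windows was counted if any of them held the box, for members and for all genes alike. In Dhcr7 it stood only in the window at chr7:143829964-143830213, and not in those by the gene's start at 143823145. Pmvk also had a window without it. TCACNCCAC, a form of the sterol regulatory element, was found before Hmgcs1 and no other member, and before 1.22% of all genes. The E-box CACGTG stood before 6 of the 28 genes, against 6.86% of all genes. A match is a description of letters and does not show that a factor binds. In the windows shown, no match of one motif shares a base with a match of another.

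4 windows are shown: those of the enzymes with the largest KO to WT ratios after injury among sterol enzymes with at least 100 UMIs in astrocyte-like nuclei, and that of Hmgcs1, which holds the sole sterol element. They are Hmgcs1 (chr13:119690101-119690350, plus strand), Hsd17b7 (chr1:169969206-169969455, minus strand), Mvd (chr8:122443423-122443672, minus strand) and Lss (chr10:76531355-76531604, plus strand). Each runs 5′ to 3′ towards the gene, with CCAAT boxes (ATTGG where the box lies on the other strand) and the sterol element in capitals.
Hmgcs1: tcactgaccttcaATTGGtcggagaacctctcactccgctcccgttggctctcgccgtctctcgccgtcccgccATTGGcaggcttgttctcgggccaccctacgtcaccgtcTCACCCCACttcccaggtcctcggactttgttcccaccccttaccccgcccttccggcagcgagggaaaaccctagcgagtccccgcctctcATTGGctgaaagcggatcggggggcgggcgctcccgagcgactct
Hsd17b7: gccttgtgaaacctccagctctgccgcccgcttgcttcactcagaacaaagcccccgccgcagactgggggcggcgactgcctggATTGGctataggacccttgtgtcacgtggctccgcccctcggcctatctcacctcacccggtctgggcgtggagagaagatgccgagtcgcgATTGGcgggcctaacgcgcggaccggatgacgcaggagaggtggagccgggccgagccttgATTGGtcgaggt
Mvd: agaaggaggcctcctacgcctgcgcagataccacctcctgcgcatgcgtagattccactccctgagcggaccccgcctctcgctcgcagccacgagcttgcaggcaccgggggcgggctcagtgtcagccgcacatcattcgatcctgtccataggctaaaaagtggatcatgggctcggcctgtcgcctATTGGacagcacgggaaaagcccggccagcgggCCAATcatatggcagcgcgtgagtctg
Lss: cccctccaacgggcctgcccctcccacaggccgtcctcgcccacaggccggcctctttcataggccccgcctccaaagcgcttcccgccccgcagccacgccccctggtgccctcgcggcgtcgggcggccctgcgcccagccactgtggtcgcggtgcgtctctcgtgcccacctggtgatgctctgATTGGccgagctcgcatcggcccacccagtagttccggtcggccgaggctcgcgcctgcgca
Hmgcs1 and Hsd17b7 hold 3 CCAAT boxes each, Mvd holds 2 and Lss holds 1. The nearest lies 43 bases before the start in Hmgcs1, 10 in Hsd17b7, 25 in Mvd and 60 in Lss.

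Astrocyte-like nuclei held the highest level of most members. Over the 4 libraries together, the highest of 7 classes was the astrocyte-like class for 22 of the 35 genes, the oligodendrocyte-like class for 9, committed precursors (cells between precursor and oligodendrocyte) for 3 and oligodendrocyte precursors for 1. Classes were cut from the same nuclei, so these orders are a description. For many members the highest class changed between libraries. In WT SNI, Hmgcs1 was highest in committed precursor-like and Msmo1 in oligodendrocyte-like nuclei. Of the sterol enzymes, Idi1, Nsdhl and Dhcr7 alone had the astrocyte-like class highest in each library. Excitatory or inhibitory neuron-like nuclei were most often lowest. The sterol enzymes differed between classes by modest factors. Hmgcs1, which makes the precursor of mevalonate, stood at 145 CPM in astrocyte-like, 128 CPM in oligodendrocyte-like and 54.4 CPM in excitatory neuron-like nuclei. Msmo1, which removes methyl groups from the sterol ring, followed with 152 CPM, 141 CPM and 43.1 CPM in the same classes. Nsdhl, its partner enzyme, was more astrocytic, at 69.5 CPM against 19.2 CPM in excitatory neuron-like nuclei. Mvd, which makes the building block isopentenyl diphosphate, had the widest spread of the sterol enzymes, from 30.2 CPM in astrocyte-like to 3.09 CPM in precursor-like nuclei. The lower level rests on 8 UMIs over the 4 libraries.

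**Figure D1:**
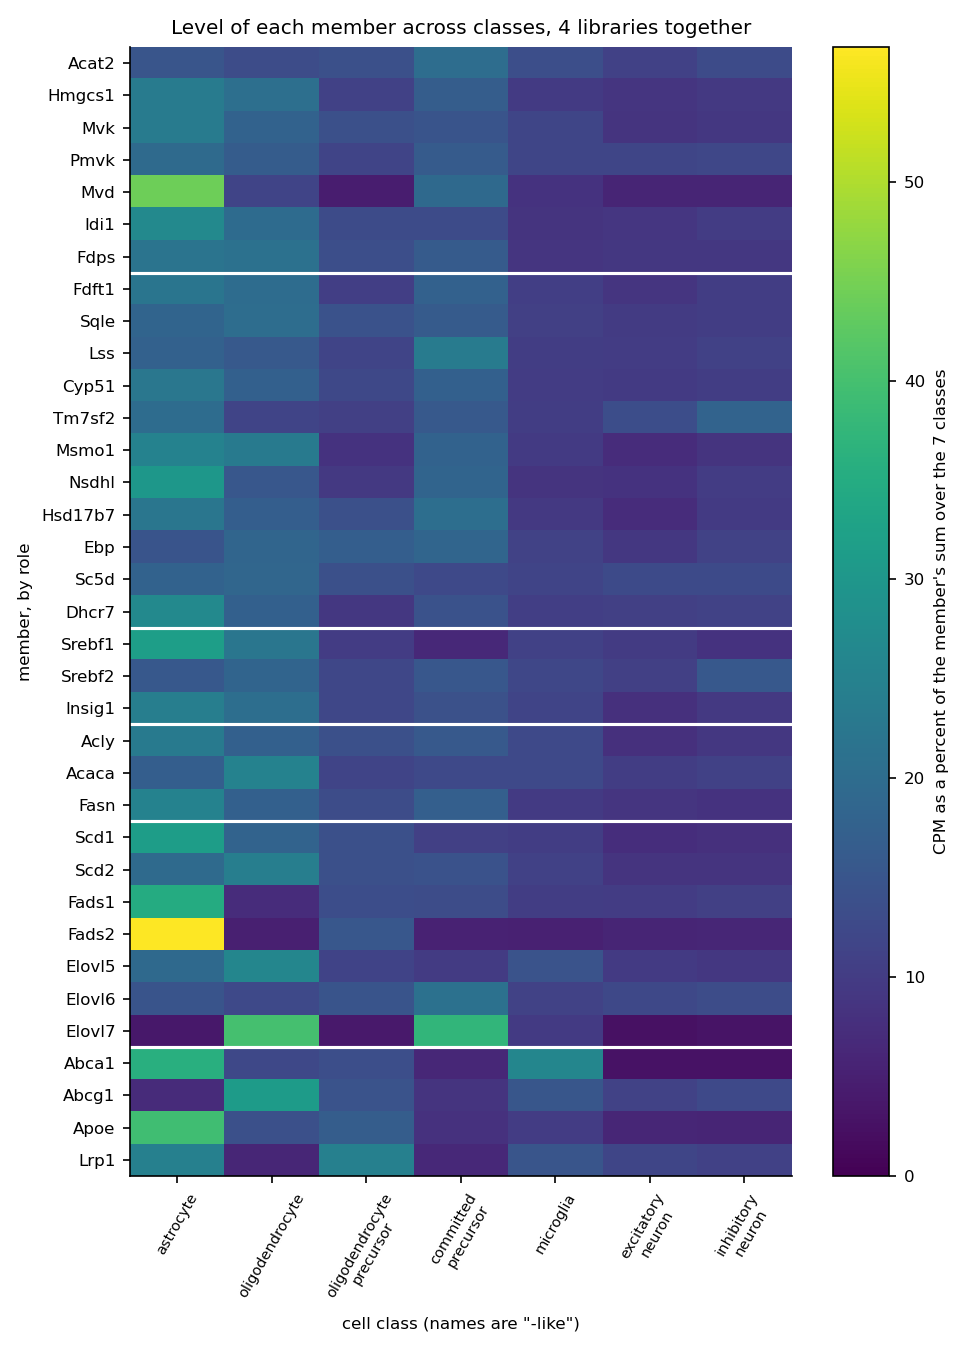
Share of each member's level held by each of the 7 classes, as the percent of the member's CPM summed over the classes, with the 4 libraries together; rows are the 35 genes by role and white lines part the roles. Fads2 and Mvd are concentrated in astrocyte-like nuclei, and Elovl7 in oligodendrocyte-like and committed precursor-like nuclei.

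Fatty acid genes parted the classes more sharply. Fads2 and Fads1, the desaturases that make polyunsaturated fatty acids, stood at 181 CPM and 79.5 CPM in astrocyte-like nuclei and at 16.3 CPM and 16.2 CPM in oligodendrocyte-like nuclei. For Fads2 this was an 11.1-fold range. The elongase gene Elovl7 had the opposite pattern, at 324 CPM in oligodendrocyte-like, 304 CPM in committed precursor-like and 20.8 CPM in excitatory neuron-like nuclei, a 15.6-fold range. Scd2, the main stearoyl desaturase of myelinating cells, was at 834 CPM in oligodendrocyte-like and 674 CPM in astrocyte-like nuclei. Acaca, whose enzyme commits acetyl units to fatty acids, was at 515 CPM and 348 CPM in these classes. Elovl6, which lengthens saturated chains, was highest in committed precursors at 241 CPM. The highest class of Fads1, Fads2, Scd1, Scd2, Acaca, Fasn, Elovl5 and Elovl6 was the same in each of the 4 libraries. That of Elovl7 and Acly was not. Elovl7 was highest in committed precursor-like nuclei in WT naive, and Acly in oligodendrocyte-like nuclei in WT SNI.

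The carriers divided among cell types. Apoe, the main lipoprotein of the cord, was at 625 CPM in astrocyte-like, 264 CPM in precursor-like and 93.2 CPM in inhibitory neuron-like nuclei. Abca1, which loads cholesterol on to apolipoprotein E, was at 124 CPM in astrocyte-like, 90.5 CPM in microglia-like and 9.53 CPM in excitatory neuron-like nuclei. Its relative Abcg1 was highest in oligodendrocyte-like nuclei at 94.1 CPM and lowest in astrocyte-like nuclei at 20.8 CPM. Lrp1, a receptor for apolipoprotein E, stood at 192 CPM in precursor-like and 191 CPM in astrocyte-like nuclei, and at 47.0 CPM in oligodendrocyte-like nuclei. Of the regulators, Srebf2 was spread over the classes, with 139 CPM in oligodendrocyte-like and 82.7 CPM in excitatory neuron-like nuclei. Srebf1, which favours fatty acid genes, was highest in astrocyte-like nuclei at 25.5 CPM, against 5.29 CPM, from 6 UMIs, in committed precursors. Insig1, which holds both factors back when sterol is plentiful, followed the sterol enzymes at 82.7 CPM, 69.3 CPM and 26.9 CPM in astrocyte-, oligodendrocyte- and excitatory neuron-like nuclei.

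**Figure D2:**
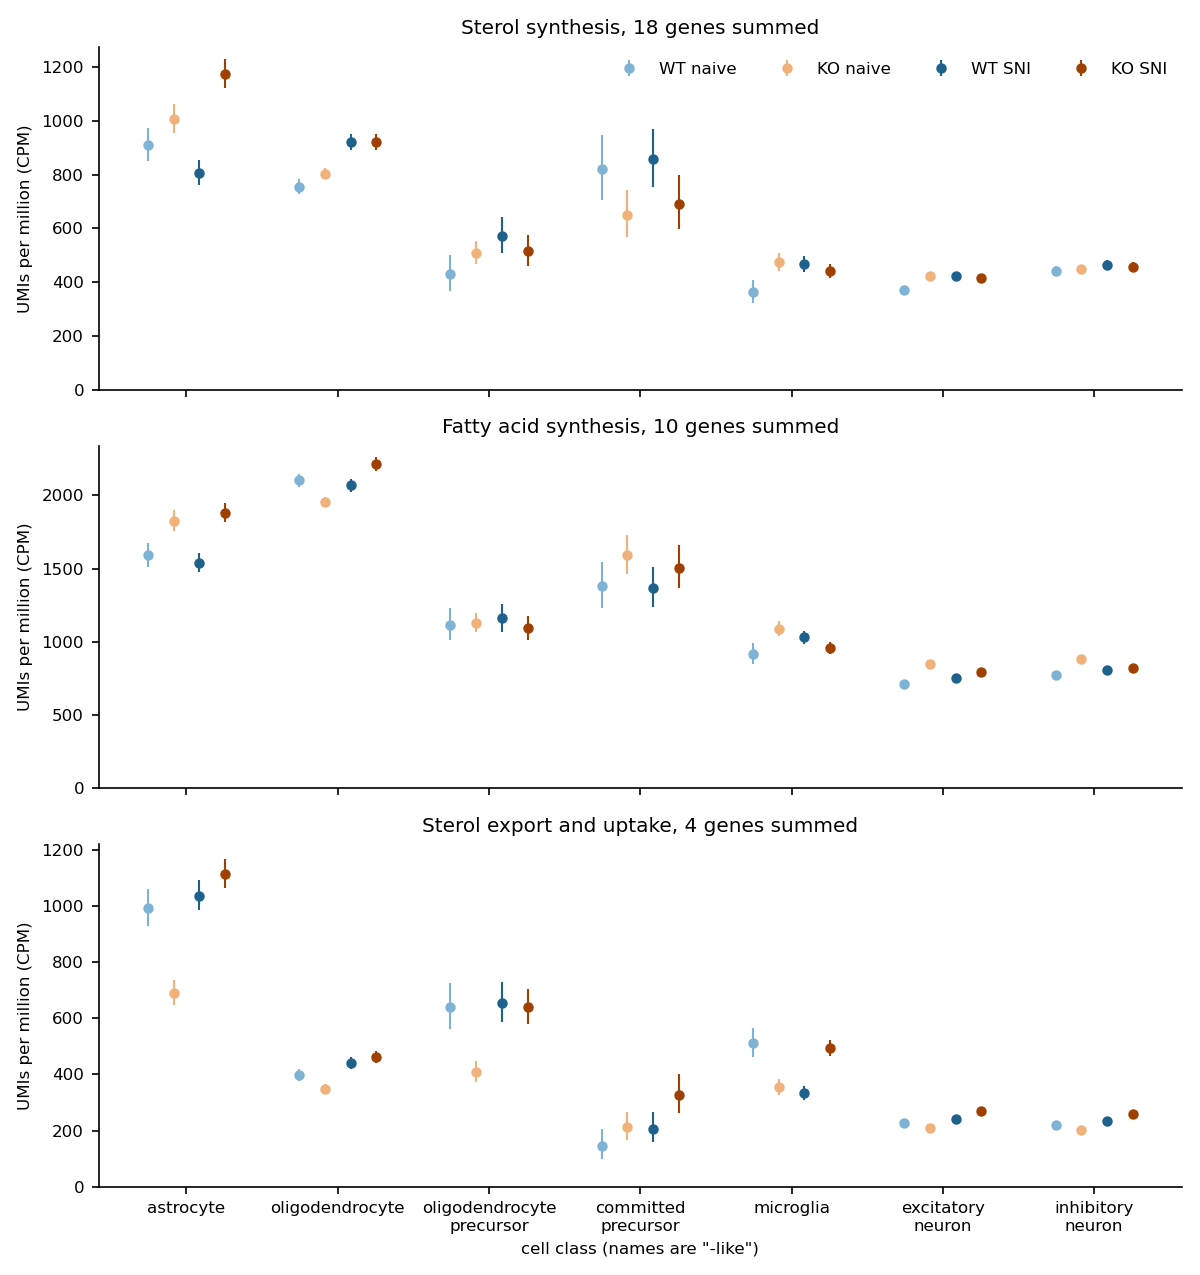
Summed level (CPM) of the sterol synthesis, fatty acid synthesis, and export and uptake genes in 7 cell classes; each point is 1 of the 4 libraries and bars are exact Poisson 95% intervals for counting error. Sterol sums in astrocyte-like nuclei run from 807 in WT SNI to 1175 in KO SNI.

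In astrocyte-like nuclei after injury, the KO library held more of nearly every sterol enzyme than the WT library. The 18 enzymes summed to 910 CPM in WT naive, 1008 CPM in KO naive, 807 CPM in WT SNI and 1175 CPM in KO SNI. WT SNI was the lowest and KO SNI the highest of the 4. KO exceeded WT by 0.54 after injury (95% interval 0.44 to 0.65) and by 0.15 (0.02 to 0.27) in naive mice, on the log2 scale. The naive ratio turned to -0.11 with each library clustered on its own and was 0.30 in nuclei with at least 1000 UMIs. Of the 18 enzymes, 17 were higher in KO SNI than in WT SNI, and the remaining one, Dhcr7, the last enzyme of the pathway, stood at 32.4 CPM in both. Of all genes with at least 100 UMIs in the class over the 4 libraries, 53.2% were higher by any amount. Among the 14 enzymes with that many UMIs, the median ratio was 0.48, against 0.02 over all 7947 genes, and 5 exceeded 1.5-fold, against 4.27% of all genes. The other 4 enzymes, Acat2, Mvk, Tm7sf2 and Ebp, had 60 to 90 UMIs.

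Both stages of the pathway were higher. The mevalonate stage was at 256 CPM in WT SNI and 378 CPM in KO SNI, a log2 ratio of 0.56. The stage from squalene onward was at 551 CPM and 797 CPM, a ratio of 0.53. Hsd17b7, a ketone reductase of the sterol ring, differed most among enzymes with 100 UMIs or more, at 25.5 CPM in WT naive, 22.7 CPM in KO naive, 9.17 CPM in WT SNI and 37.4 CPM in KO SNI. Its KO to WT ratio after injury was 2.03 (1.15 to 3.02), and WT SNI was the library that stood apart downward. Lss, which closes squalene epoxide into the first sterol ring, was high in both KO libraries: 15.5 CPM in WT naive, 34.7 CPM in KO naive, 12.7 CPM in WT SNI and 37.4 CPM in KO SNI. Its ratios were 1.16 (0.28 to 2.14) in naive mice and 1.56 (0.78 to 2.41) after injury, from different libraries. Mvd was at 34.3 CPM, 34.7 CPM, 16.2 CPM and 36.2 CPM in the same order, so that WT SNI alone was low. Its ratio after injury was 1.16 (0.44 to 1.92).

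Pmvk, the second kinase of the mevalonate stage, was higher in both KO libraries, with 21.0 CPM and 35.4 CPM in naive WT and KO and 18.3 CPM and 36.2 CPM after injury. Fdft1, squalene synthase, was at 70.8 CPM in WT naive, 97.8 CPM in KO naive, 79.0 CPM in WT SNI and 126 CPM in KO SNI. Its ratio was 0.47 (0.03 to 0.92) in naive mice and 0.67 (0.33 to 1.02) after injury. Sqle, which makes squalene epoxide, and Sc5d, a late desaturase, exceeded 1.5-fold in naive mice, at 0.70 (0.20 to 1.23) and 0.65 (0.16 to 1.17). Their ratios after injury were 0.37 (-0.01 to 0.76) and 0.48 (0.08 to 0.89). Hmgcs1 and Msmo1, the enzymes with most UMIs in the class, differed after injury by 0.46 (0.18 to 0.75) and 0.31 (0.03 to 0.59). In naive mice the 14 enzymes had a median ratio of 0.02, against 0.07 over all genes, with 8 higher and 6 lower where 55.8% of all genes were higher, and 4 passed 1.5-fold, against 17.0% of all genes.

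**Figure D3:**
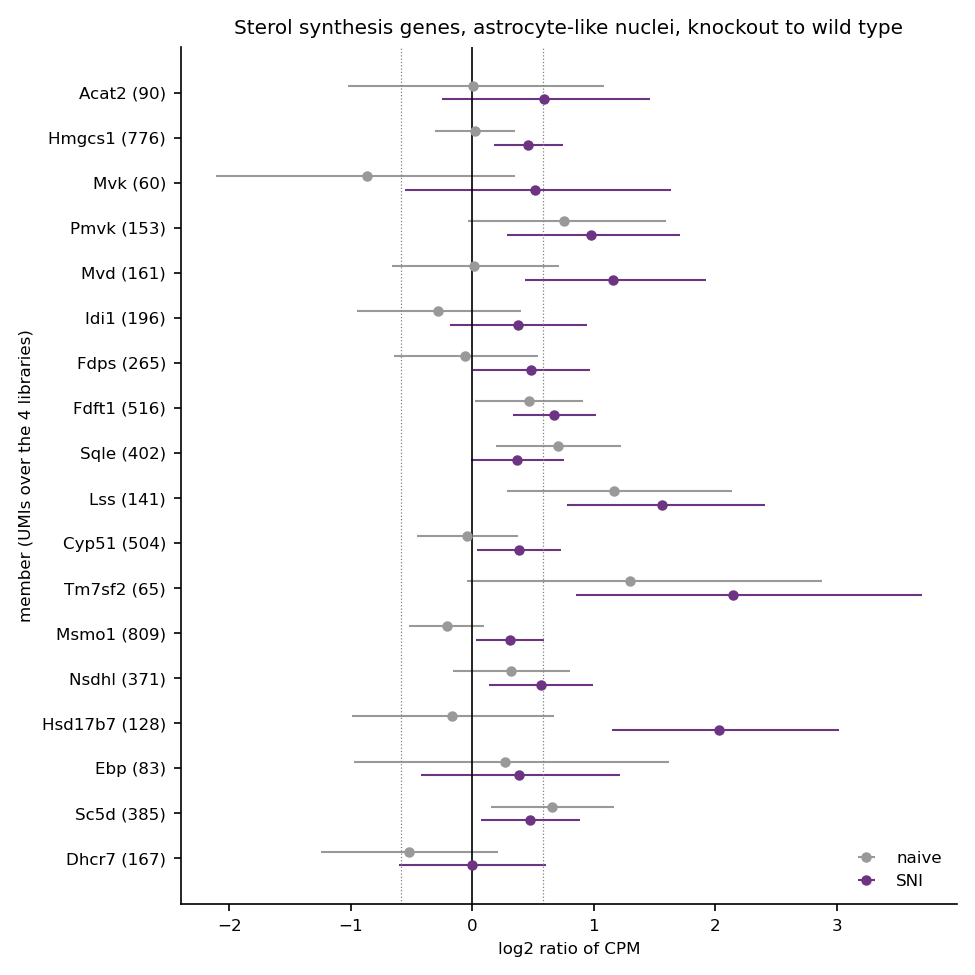
Log2 ratio of CPM, KO to WT, of the 18 sterol enzymes in astrocyte-like nuclei, in naive mice (grey) and after SNI (purple); numbers beside names are UMIs over the 4 libraries, bars are 95% counting intervals and dotted lines mark 1.5-fold. After injury 17 of the 18 lie to the right of 0, and Hsd17b7, Lss, Mvd, Pmvk and Fdft1 lie beyond 1.5-fold. So do Tm7sf2 and Acat2, which had 65 and 90 UMIs.

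The same libraries give the injury contrasts, which share WT SNI and KO SNI with the genotype contrast. In WT mice the sterol sum was lower after injury, by a log2 ratio of -0.17 (-0.30 to -0.04), and in KO mice higher, by 0.22 (0.12 to 0.32). Of the 14 enzymes, 11 were lower in WT SNI than in WT naive, with a median of -0.21 against 0.06 over all genes, of which 42.4% were lower by any amount. Those 1.5-fold lower were Hsd17b7, at -1.47 (-2.58 to -0.43), and Mvd, at -1.08 (-1.93 to -0.26), 2 of 14 enzymes against 4.04% of all genes. In KO mice 13 of the 14 were higher after injury, where 50% of all genes were, but Hsd17b7, at 0.72 (0.08 to 1.39), alone passed 1.5-fold, against 8.43% of all genes. The difference between the injury ratios of the genotypes was not tested.

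Sterol genes outside the chosen set behaved unevenly. Of 19 further genes of sterol synthesis, sensing and storage, 16 had at least 100 UMIs in astrocyte-like nuclei, and 8 were higher and 8 lower in KO SNI than in WT SNI. The median was 0.03. The regulator Srebf2 resembled the sterol enzymes in having KO SNI as its highest library, at 127 CPM in WT naive, 117 CPM in KO naive, 98.0 CPM in WT SNI and 138 CPM in KO SNI, with a ratio of 0.49 (0.18 to 0.81) after injury. Insig1 stood at 70.8 CPM, 82.2 CPM, 73.3 CPM and 97.9 CPM, and Srebf1 at 23.2 CPM, 33.3 CPM, 26.1 CPM and 19.3 CPM, lowest where Srebf2 was highest.

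Fatty acid genes in astrocyte-like nuclei were higher in KO than in WT under both conditions, by a summed ratio of 0.20 in naive mice and 0.29 after injury. The sums were 1592 CPM in WT naive, 1827 CPM in KO naive, 1538 CPM in WT SNI and 1883 CPM in KO SNI, so both KO libraries lay above both WT libraries. Elovl6 had the clearest split by genotype of the 10 genes, at 112 CPM in WT naive, 205 CPM in KO naive, 118 CPM in WT SNI and 213 CPM in KO SNI. Its KO to WT ratio was 0.87 (0.54 to 1.22) in naive mice and 0.86 (0.59 to 1.13) after injury, and its SNI to naive ratios were 0.07 and 0.06. The gene lies at chr3:129532355-129638495 (GRCm38, plus strand). Acly, which splits citrate into the acetyl units both pathways use, differed after injury, at 73.1 CPM, 74.4 CPM, 48.7 CPM and 99.8 CPM in the order WT naive, KO naive, WT SNI, KO SNI. Its KO to WT ratio after injury was 1.04 (0.62 to 1.46). Acss2, which makes the same acetyl units from acetate and was not among the 35 genes, ran in parallel at 209 CPM, 225 CPM, 129 CPM and 271 CPM, a ratio of 1.07 (0.82 to 1.33). Scd1 was higher in KO naive (74.4 CPM) than in WT naive (33.2 CPM), by 1.16 (0.57 to 1.80), and Scd2, its paralog, lay between 631 CPM and 715 CPM in all libraries. After injury 9 of the 10 genes were higher in KO, where 53.2% of all genes were, and 2 passed 1.5-fold, against 4.27% of all genes.

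Apoe stood apart from the enzymes. In astrocyte-like nuclei it was at 615 CPM in WT naive, 391 CPM in KO naive, 677 CPM in WT SNI and 789 CPM in KO SNI. KO naive was the low library, 0.65 below WT naive on the log2 scale (-0.83 to -0.48), where 10.3% of all genes were 1.5-fold lower. From KO naive to KO SNI the ratio was 1.01 (0.87 to 1.16). Lrp1 (221, 163, 205 and 186 CPM) and Abca1 (143, 107, 133 and 122 CPM) were also lowest in KO naive. Abcg1 was the exception, at 12.2 CPM in WT naive and 29.1 CPM in KO naive.

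Several measures moved with these astrocyte-like values, and their part in them was not tested. The sum of 8 neuronal markers in astrocyte-like nuclei was 2345 CPM in WT naive, 7290 CPM in KO naive, 3455 CPM in WT SNI and 3867 CPM in KO SNI. That of 10 microglial markers was 300 CPM, 271 CPM, 439 CPM and 808 CPM, so KO SNI held most. None of these markers was at 0 over all libraries. The 10 astrocyte markers summed to 7759 CPM, 6691 CPM, 7525 CPM and 8157 CPM, lowest in KO naive and highest in KO SNI. Median depth was 921.5, 1114, 1040 and 806 UMIs per nucleus. All astrocyte-like nuclei, 952, 1227, 1307 and 1885 of them in the 4 libraries, lay in 1 cluster.

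In oligodendrocyte-like nuclei every sterol enzyme was higher after injury in both genotypes. The 18 enzymes summed to 754 CPM in WT naive, 804 CPM in KO naive, 922 CPM in WT SNI and 921 CPM in KO SNI, so both SNI libraries lay above both naive libraries. The SNI to naive ratio was 0.29 (0.22 to 0.36) in WT and 0.20 (0.13 to 0.26) in KO, pairs of libraries that share none. With each library clustered on its own the WT ratio was 0.044. All 18 were higher after injury in WT, where 57.8% of 11633 genes were higher by any amount, and all 18 in KO, where 47.0% were. Median ratios were 0.28 in WT and 0.19 in KO, against 0.06 and -0.03 over all genes. The steps were small: 2 of 18 passed 1.5-fold in each genotype, against 8.05% of all genes in WT and 8.08% in KO.

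Hsd17b7 and Mvd were the enzymes past 1.5-fold in both genotypes. Hsd17b7 was at 11.4 CPM in WT naive, 16.1 CPM in KO naive, 20.5 CPM in WT SNI and 26.8 CPM in KO SNI, with ratios of 0.85 (0.30 to 1.42) in WT and 0.73 (0.33 to 1.14) in KO. Mvd was at 5.03 CPM, 6.66 CPM, 9.76 CPM and 10.8 CPM, with ratios of 0.96 (0.13 to 1.83) and 0.70 (0.05 to 1.35). For both genes the SNI libraries lay above the naive ones, whereas in astrocyte-like nuclei WT SNI had been their lowest library. Hmgcs1 was at 105 CPM, 127 CPM, 140 CPM and 141 CPM, and Msmo1 at 136 CPM, 128 CPM, 159 CPM and 149 CPM. Sqle was low in WT naive alone, at 63.0 CPM, against 87.7 CPM in KO naive, 87.6 CPM in WT SNI and 90.6 CPM in KO SNI. Insig1 had that pattern as well, at 50.5 CPM in WT naive and 72.6 to 75.4 CPM in the other 3 libraries. Cyp51, an early demethylase of the sterol ring, was at 74.4 CPM, 62.7 CPM, 77.8 CPM and 84.2 CPM. Of the remaining enzymes, Fdps had a KO ratio of 0.41 (0.14 to 0.69) and Dhcr7 a WT ratio of 0.45 (0.02 to 0.89).

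**Figure D4:**
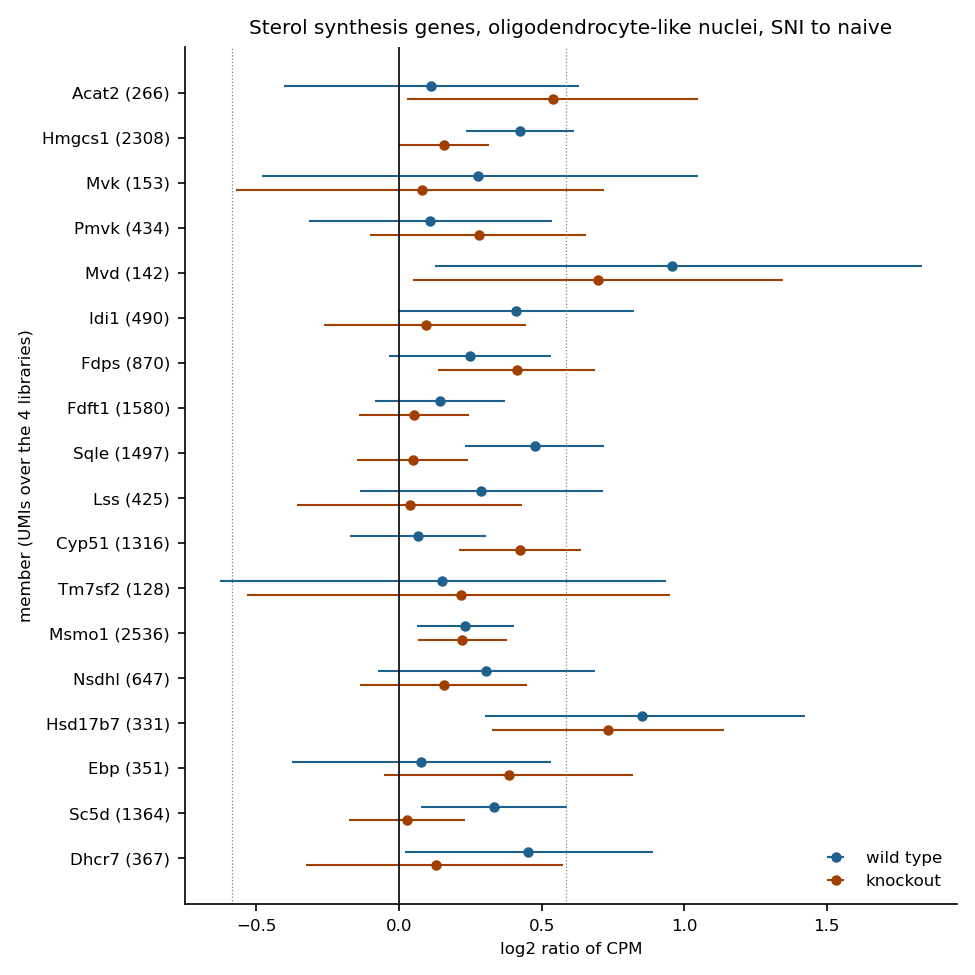
Log2 ratio of CPM, SNI to naive, of the 18 sterol enzymes in oligodendrocyte-like nuclei, in WT (blue) and in KO (brown) mice; numbers beside names are UMIs over the 4 libraries, bars are 95% counting intervals and dotted lines mark 1.5-fold. The 18 sterol enzymes lie to the right of 0 in both genotypes, and Mvd and Hsd17b7 lie beyond 1.5-fold in both.

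The further sterol genes did not follow. In oligodendrocyte-like nuclei 9 of 18 with at least 100 UMIs were higher after injury in WT and 8 of 18 in KO, with medians of 0.00 and -0.04. Srebf2 went the other way from the enzymes in WT, at 169 CPM in naive and 141 CPM in SNI, and was at 122 CPM and 136 CPM in KO. KO and WT differed little in the sterol sum of these nuclei, by 0.09 (0.03 to 0.16) in naive mice. After injury the ratio lay within an interval of -0.07 to 0.07. Among single enzymes 9 were higher and 9 lower in naive KO, where 55.5% of all genes were higher by any amount, and none passed 1.5-fold, against 16.6% of genes higher and 9.57% lower by that much. After injury 10 were higher and 8 lower, where 50.1% of all genes were higher, and Dhcr7 alone passed 1.5-fold, at -0.63 (-1.08 to -0.18), where 3.86% of genes were lower by that much.

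Fatty acid genes of oligodendrocyte-like nuclei summed to 2102 CPM in WT naive, 1956 CPM in KO naive, 2069 CPM in WT SNI and 2215 CPM in KO SNI. In KO, 7 of 10 were higher after injury, where 47.0% of all genes were, with a median ratio of 0.19. In WT, 6 of 10 were, where 57.8% of all genes were, with a median of 0.17. Acly differed more than the sum, at 42.1 CPM, 45.7 CPM, 61.1 CPM and 81.4 CPM in the order WT naive, KO naive, WT SNI, KO SNI. Its SNI to naive ratio was 0.54 (0.24 to 0.84) in WT and 0.83 (0.60 to 1.07) in KO. Slc25a1, the mitochondrial carrier that exports the citrate Acly uses, was at 7.14 CPM, 10.7 CPM, 6.93 CPM and 25.0 CPM, highest in KO SNI as Acly was. It was not among the 35 genes and rests on 220 UMIs. Acaca stood at 557 CPM, 466 CPM, 543 CPM and 529 CPM and Elovl7 at 345 CPM, 301 CPM, 297 CPM and 370 CPM. Fasn, fatty acid synthase, was at 21.2 CPM, 22.0 CPM, 32.1 CPM and 26.3 CPM, with a WT ratio of 0.60 (0.18 to 1.02). Scd3, another stearoyl desaturase, was 27.7 CPM in KO naive and 80.6 to 101 CPM in the other libraries.

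The clusters behind the oligodendrocyte-like class were not evenly shared. Cluster 6 supplied 4737 of the 6258 KO naive nuclei and 17, 53 and 139 nuclei in WT naive, WT SNI and KO SNI, while cluster 2 supplied 3206, 2757 and 2947 nuclei of those libraries and 258 in KO naive. Cluster 4 was even, with 1199 to 1571 nuclei in each library. Within it the sterol sum was 840 CPM in WT naive, 873 CPM in KO naive, 1107 CPM in WT SNI and 1031 CPM in KO SNI. Its SNI to naive ratios were 0.40 (0.29 to 0.51) in WT and 0.24 (0.14 to 0.34) in KO, and 15 and 14 of the 18 enzymes were higher after injury. In the cluster 55.8% of all genes were higher by any amount in WT and 44.6% in KO. With each library clustered on its own the count was 12 of 18 in WT and 17 in KO, and in nuclei with at least 1000 UMIs it was 15 and 17. Neuronal markers summed to 2499 CPM, 8149 CPM, 3676 CPM and 3985 CPM in oligodendrocyte-like nuclei and microglial markers to 368 CPM, 284 CPM, 462 CPM and 853 CPM. The 10 oligodendrocyte markers summed to 10608 CPM, 8323 CPM, 9611 CPM and 10289 CPM. None of these markers was at 0 over all libraries, and their part in the ratios was not tested. Actb, a cytoskeletal gene outside the set, was also higher after injury, at 363 CPM, 361 CPM, 515 CPM and 539 CPM. It was higher after injury in both genotypes in each of the other classes shown. In astrocyte-like nuclei it was at 301 CPM, 317 CPM, 449 CPM and 472 CPM. The part of such a difference between libraries in the sterol ratios was not tested.

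Abca1 had the largest ratio of any member with at least 100 UMIs in microglia-, oligodendrocyte precursor- and both neuron-like classes. In microglia-like nuclei it was at 119 CPM in WT naive, 83.2 CPM in KO naive, 36.8 CPM in WT SNI and 135 CPM in KO SNI. WT SNI was the low library: the KO to WT ratio after injury was 1.87 (1.51 to 2.25), where 6.05% of 9071 genes were 1.5-fold higher. The SNI to naive ratio was -1.70 (-2.16 to -1.24) in WT, where 14.4% of genes were 1.5-fold lower, and 0.69 (0.41 to 0.99) in KO, where 9.6% were 1.5-fold higher. In oligodendrocyte precursor-like nuclei the order was the same, at 61.8 CPM, 40.2 CPM, 21.7 CPM and 71.8 CPM. There the KO to WT ratio after injury was 1.73 (0.75 to 2.82), where 5.56% of 4925 genes were 1.5-fold higher.

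In neuron- and oligodendrocyte-like nuclei Abca1 was also highest in KO SNI. Excitatory neuron-like nuclei held 4.63 CPM in WT naive, 8.41 CPM in KO naive, 6.69 CPM in WT SNI and 17.3 CPM in KO SNI, a ratio of 1.37 (0.92 to 1.85) after injury, where 2.51% of 13770 genes were 1.5-fold higher. Inhibitory neuron-like nuclei held 4.95 CPM, 8.60 CPM, 5.46 CPM and 20.6 CPM, a ratio of 1.91 (1.27 to 2.60), where 2.22% of 12104 genes were. Oligodendrocyte-like nuclei held 43.4 CPM, 37.8 CPM, 36.2 CPM and 58.4 CPM, a ratio of 0.69 (0.38 to 1.00), where 3.69% of genes were. In astrocyte-like nuclei, where Abca1 was most abundant, the ratio was -0.13 (-0.43 to 0.16). Abca1 lies at chr4:53030787-53159895 (GRCm38, minus strand).

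**Figure D5:**
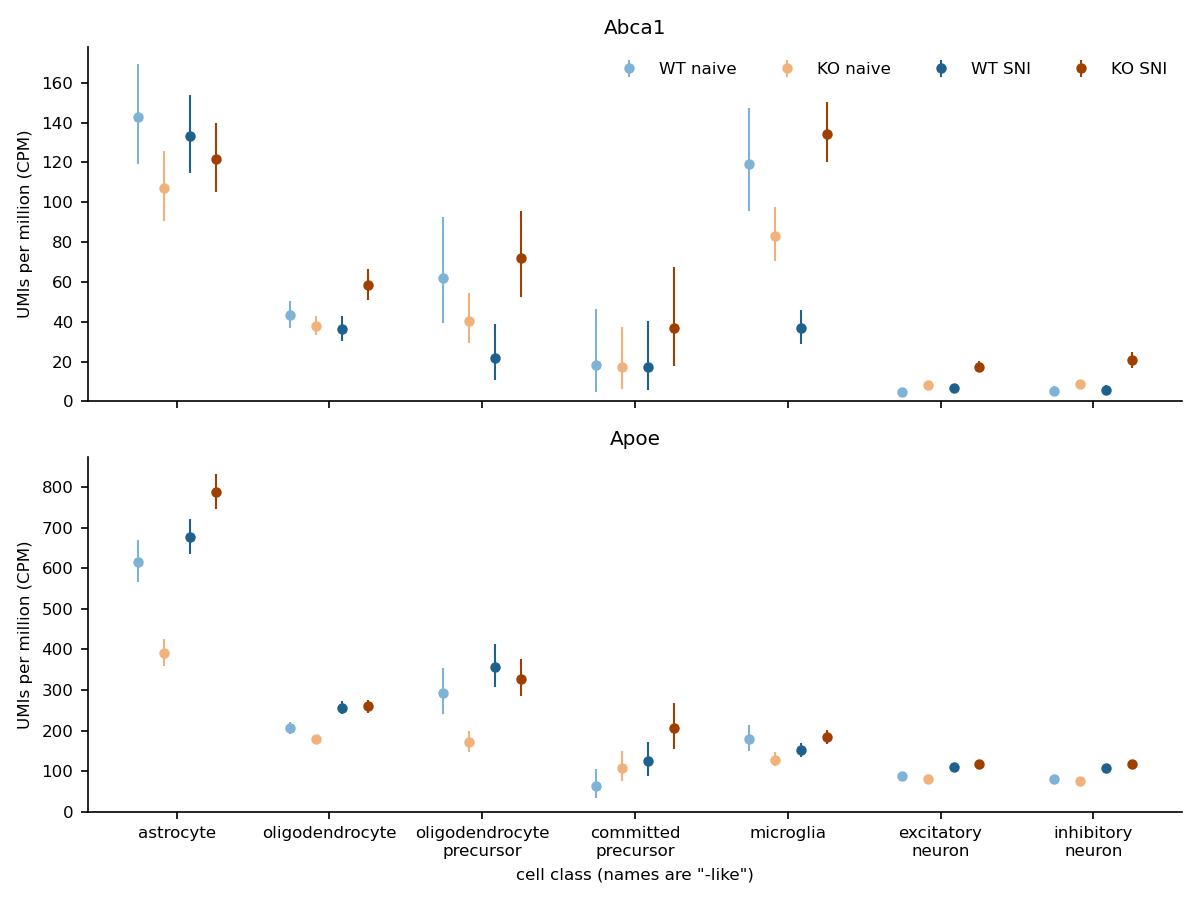
Level (CPM) of Abca1 and Apoe in 7 cell classes; each point is 1 of the 4 libraries and bars are exact Poisson 95% intervals for counting error. Abca1 in microglia-like nuclei is lowest in WT SNI (36.8) and highest in KO SNI (135), and Apoe in astrocyte-like nuclei is lowest in KO naive (391).

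Microglial markers also varied, within the class and outside it. In microglia-like nuclei the 10 markers summed to 4336 CPM in WT naive, 1767 CPM in KO naive, 1755 CPM in WT SNI and 3123 CPM in KO SNI, low where Abca1 was low, and none was at 0. In excitatory neuron-like nuclei they summed to 224 CPM, 168 CPM, 283 CPM and 478 CPM. Neuronal markers in microglia-like nuclei summed to 9268 CPM, 17784 CPM, 16969 CPM and 14902 CPM. The part of these in the Abca1 values was not tested. Of the 2 microglia-like clusters, cluster 14 alone gave Abca1 ratios of 1.76 for KO to WT after injury and -1.85 for SNI to naive in WT, and cluster 22, whose nuclei had a median doublet score of 0.159, gave 1.90 and -1.19.

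Mylip, whose product is a ubiquitin ligase of lipoprotein uptake and which, as Abca1, is a known target of the sterol-sensing liver X receptors, had the same order of libraries in microglia-like nuclei except at the top. It was at 118 CPM in WT naive, 61.6 CPM in KO naive, 50.8 CPM in WT SNI and 111 CPM in KO SNI. The KO to WT ratio after injury was 1.13 (0.80 to 1.47). The order was not that of cluster 14, where Mylip was at 150 CPM, 70.2 CPM, 113 CPM and 127 CPM, so WT SNI lay close to KO SNI. In cluster 22, which supplied most WT SNI UMIs, it was lowest in WT SNI at 25.8 CPM, against 70.5 CPM in WT naive and 50.1 CPM in KO naive. In excitatory neuron-like nuclei Mylip was at 5.34 CPM, 6.10 CPM, 5.82 CPM and 11.5 CPM, highest in KO SNI as Abca1 was. Abcg1, another such target, differed less, at 40.7 CPM, 43.9 CPM, 40.1 CPM and 54.4 CPM in microglia-like nuclei. All 4 export and uptake genes of microglia-like nuclei were lower in WT SNI than in WT naive and higher in KO SNI than in WT SNI, where 52.1% and 51.6% of all genes were. Both contrasts share WT SNI, and the first ratio of Abcg1 was only -0.02 (-0.64 to 0.63). Apoe there was at 179 CPM, 128 CPM, 151 CPM and 184 CPM, and Lrp1 at 171 CPM, 98.6 CPM, 106 CPM and 119 CPM.

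The sterol sum of microglia-like nuclei had another order, with WT naive lowest. The sterol sum was 362 CPM in WT naive, 474 CPM in KO naive, 466 CPM in WT SNI and 440 CPM in KO SNI. Of 11 sterol enzymes with at least 100 UMIs, 10 were higher in KO naive than in WT naive and 10 were higher in WT SNI than in WT naive, each with a median of 0.30. By any amount 45.9% of all genes were higher in the first contrast and 47.9% in the second. The contrasts share WT naive. Pmvk, at 6.79 CPM, 21.7 CPM, 12.1 CPM and 21.4 CPM, had the largest naive ratio, 1.67 (0.33 to 3.38), where 15.7% of genes were 1.5-fold higher. Acaca was at 200 CPM, 275 CPM, 306 CPM and 225 CPM and Elovl6 at 93.7 CPM, 144 CPM, 135 CPM and 116 CPM. Not every fatty acid gene had WT naive lowest. Scd2 and Elovl7 were lower in WT SNI than in WT naive, by -0.25 (-0.45 to -0.04) and -0.37 (-0.77 to 0.05). Neuronal markers, given above, were also lowest in WT naive. Cluster 22 held 297972 of the 736636 UMIs of the class in WT naive, 757777 of 1754656 in KO naive, 1474029 of 2067716 in WT SNI and 978186 of 2333760 in KO SNI. The sterol sum was 331 CPM, 473 CPM, 467 CPM and 426 CPM in cluster 14 and 409 CPM, 475 CPM, 465 CPM and 460 CPM in cluster 22. For SNI to naive in WT this gave 0.50 (0.20 to 0.80) and 0.18 (-0.09 to 0.47), so the step was smaller within cluster 22. Acaca, at 0.62 for the same contrast in the class, was at 0.30 in cluster 14, 0.29 in cluster 22 and -0.49 with each library clustered on its own. The part of the markers and of the share of clusters in these values was not tested.

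In excitatory neuron-like nuclei the sterol sum was 371 CPM in WT naive, 424 CPM in KO naive, 423 CPM in WT SNI and 416 CPM in KO SNI, lowest in WT naive. The KO to WT ratio in naive mice was 0.19 (0.13 to 0.26). In inhibitory nuclei the sum was 441 CPM, 450 CPM, 463 CPM and 456 CPM in that order. Some single members differed more. Scd1 was at 6.74 CPM, 14.3 CPM, 12.3 CPM and 14.8 CPM in excitatory nuclei, low in WT naive alone, with a naive KO to WT ratio of 1.09 (0.63 to 1.57), where 4.73% of genes were 1.5-fold higher. It was at 8.48 CPM, 17.1 CPM, 13.3 CPM and 13.2 CPM in inhibitory nuclei, a ratio of 1.01 (0.47 to 1.58), where 4.68% were. Higher Scd1 in KO naive than in WT naive thus recurred in astrocyte-, oligodendrocyte- and both neuron-like classes, which come from the same pair of libraries. Insig1 was also higher in KO naive, by 0.64 (0.37 to 0.92) in excitatory, 0.72 (0.37 to 1.07) in inhibitory and 0.58 (0.33 to 0.83) in oligodendrocyte-like nuclei. In astrocyte-like nuclei its ratio was 0.21, with an interval of -0.24 to 0.68. Fasn in inhibitory nuclei was at 6.36 CPM, 12.1 CPM, 15.1 CPM and 13.0 CPM, low in WT naive alone. The 10 astrocyte markers were also lowest in WT naive, at 166 CPM, 265 CPM, 245 CPM and 277 CPM in excitatory and 231 CPM, 321 CPM, 288 CPM and 334 CPM in inhibitory nuclei. None was at 0, and their part in these values was not tested.

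Acly was high in KO SNI in neurons too. Excitatory nuclei held 19.5 CPM, 20.9 CPM, 21.9 CPM and 38.7 CPM, and inhibitory nuclei 24.3 CPM, 25.6 CPM, 30.6 CPM and 40.9 CPM. The SNI to naive ratio in KO was 0.89 (0.67 to 1.11) in excitatory nuclei, where 10.4% of genes were 1.5-fold higher, and 0.68 (0.39 to 0.97) in inhibitory nuclei, where 9.49% were. Together with astrocyte- and oligodendrocyte-like nuclei, Acly had its highest level in the KO SNI library in each of these classes. Neurons make little apolipoprotein E, and the 80.2 to 118 CPM of Apoe in excitatory nuclei was of the size of Slc17a6 in glia, so RNA from other cells cannot be told apart from expression there.

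Oligodendrocyte precursor-like nuclei were few, 359 to 685 a library, and 18 members reached 100 UMIs. Besides Abca1, Apoe stood at 293 CPM in WT naive, 172 CPM in KO naive, 357 CPM in WT SNI and 328 CPM in KO SNI, low in KO naive as in astrocyte-like nuclei. The naive ratio was -0.77 (-1.12 to -0.41), where 13.2% of genes were 1.5-fold lower. Lrp1 was at 242 CPM, 153 CPM, 231 CPM and 197 CPM, and its naive ratio was -0.67 (-1.05 to -0.28). Both were lowest in KO naive. The sterol sum ran from 430 CPM in WT naive to 571 CPM in WT SNI, and Hmgcs1 from 45.7 CPM to 86.9 CPM in the same libraries. Neuronal markers in these nuclei summed to 9124 CPM, 16949 CPM, 10969 CPM and 13233 CPM. The 8 precursor markers summed to 11591 CPM, 6207 CPM, 9910 CPM and 8717 CPM, also lowest in KO naive. The part of both in the values was not tested.

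Some members share sequence with near copies whose reads the counting could split or drop. They are Acat2 with Acat3, Idi1 with Idi2, and Scd1 and Scd2 with each other and with Scd3 and Scd4. Mvk starts beside Mmab. Whether intronic reads and the strand were counted is not given in the sources used here.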

How the data were processed

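Filtered barcode matrices of raw counts (UMIs per gene and nucleus) were deposited by the authors, made with Cell Ranger 7.0.0 per the file headers. Build GRCm38, Seurat 4.3.0 and R 4.3.0 stand in the submitters' processing notes. From the counts, nuclei were kept from 300 genes upward if mitochondrial UMIs were under 5%. Doublets predicted by Scrublet (4.79% to 9.85% a library, by a score percentile in the WT libraries, where no automatic threshold served) were removed. The 4 libraries were clustered together (scanpy 1.11.5, Python 3.11.15, 3000 variable genes, 40 components, 20 neighbours, Leiden resolution 1) and clusters were named "-like" from marker lists. Part of the naming rule was set after the data were seen, and 38.0% of nuclei stayed unnamed. UMIs were summed per class and library. CPM have exact Poisson and ratios exact conditional binomial 95% intervals (scipy 1.17.1), for counting error only. For ratios, 3 UMIs stood in for a count of 0. The calculations were tested on simulated data. Replicate tests could not be made. All 35 genes are accounted for. Per contrast and class the text names members with at least 100 UMIs and the largest ratios, and up to 4 related genes per list; some related genes are not reported here. Slc17a6, Slc32a1, Actb, Slc25a1 and Mylip outside microglia were named after their values were seen. The members and lists were chosen with earlier results of these data known. Alternatives were doublets kept, deeper nuclei, Leiden resolution 0.5, libraries clustered singly, median ratio scaling, the top gene left out and the evenly shared cluster. A class total without Malat1 and single microglia-like clusters were added after the data were seen.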

Additional observations from a re-analysis of the deposited data

Results flagged for a closer look

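Injury ratios (SNI to naive, log2) were set side by side in WT and KO mice for 200 pairs of item and class. The items were members with at least 100 UMIs in the class, and the sterol and fatty acid sums. In 7 of them the ratios had opposite signs, both counting intervals left out 0 and the ratios lay at least 1.5-fold apart. The difference between the genotypes was not tested, since each ratio rests on 1 library a group.

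Hsd17b7 in astrocyte-like nuclei was at -1.47 in WT and 0.72 in KO. Acly in astrocyte-like nuclei was at -0.59 and 0.42. Abca1 was at -1.70 and 0.69 in microglia-like nuclei and at -1.51 and 0.84 in oligodendrocyte precursor-like nuclei. These had WT SNI as their lowest library and KO SNI as their highest. Acaca and Elovl6 in microglia-like nuclei went the other way, Acaca at 0.62 in WT and -0.29 in KO and Elovl6 at 0.53 and -0.31. With each library clustered on its own, the WT ratio of Acaca was -0.49. Insig1 in excitatory neuron-like nuclei was at 0.35 and -0.27.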

How the results depend on the processing

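No paired analysis was possible because each group has 1 library. Over the alternatives, the sterol ratio KO to WT after injury in astrocyte-like nuclei lay between 0.49 and 0.58, and that of SNI to naive in WT between -0.24 and -0.06. Of 92 alternative values of the summed ratios, 71 stayed within the counting interval, and the causes of the others were not tested. The sterol ratio KO to WT in naive mice reversed to -0.11 in astrocyte-like nuclei with each library clustered on its own, and to -0.048 (deeper nuclei, at least 1000 UMIs) and -0.012 (without Malat1) in oligodendrocyte-like nuclei. In deeper nuclei it was 0.30 in astrocyte-like nuclei, and with median ratio scaling 0.024 in oligodendrocyte-like nuclei. With libraries clustered singly, sterol SNI to naive ratios were 0.59 in KO astrocyte-like and 0.044 in WT oligodendrocyte-like nuclei, and the oligodendrocyte-like KO to WT ratio after injury was 0.25. Deeper nuclei gave 0.085 for SNI to naive in KO astrocyte-like, 0.27 for the same in oligodendrocyte-like, and -0.077 for KO to WT after injury in oligodendrocyte-like nuclei. The even cluster 4 gave 0.40 for sterol SNI to naive in WT and -0.10 for KO to WT after injury. Fatty acid ratios of oligodendrocyte-like nuclei were, KO to WT, 0.22 after injury (libraries singly) and in naive mice -0.21 (without Malat1), -0.0057 (cluster 4) and -0.17 (median ratio). SNI to naive they were 0.23 (without Malat1) and 0.090 (cluster 4) in KO, and -0.15 (libraries singly) and -0.072 (median ratio) in WT. Of 485 alternative values of 79 single-member ratios, 466 stayed within the interval. Acaca, SNI to naive in WT microglia-like nuclei, reversed to -0.49 with libraries clustered singly. Abca1 there kept its direction, at -0.84. Neuron-like classes gave no value with libraries clustered singly, since not every library had named neurons. Counting intervals leave out variation between mice, and members under 100 UMIs in a class, such as 4 sterol enzymes in astrocyte-like nuclei, have wide ones.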
